A study of Homo sapiens with 27 samples.

Results

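The results below concern a difference of differences: the change that 500 nM of the compound IPI-9119 brought in the prostate cancer line 22Rv1, minus the change it brought in the prostate cancer line LNCaP. Of 27 RNA sequencing libraries in the series, 12 enter it, in 4 groups of 3: LNCaP with DMSO, LNCaP with 500 nM IPI-9119, 22Rv1 with DMSO, and 22Rv1 with 500 nM IPI-9119. All cells were kept for 6 days with drug or vehicle, and the medium was not replaced. LNCaP is an established line from a lymph node metastasis and carries the label androgen sensitive. 22Rv1 is an established line from a xenograft that relapsed after castration, and is labelled castration resistant. The series also holds 100 nM groups of both lines and another line, LNCaP95, a castration-resistant derivative of LNCaP, which are used only for values set beside these. Each line stands for 1 tumour, and androgen status differs along with everything else that separates the lines, so the part of either cannot be told apart. Of 20987 genes in the deposited table, 12005 were tested, those with a normalised count of 10 or more in at least 3 of the 6 libraries of each line. The 12005 genes were taken by level alone, but many of those named below were picked by the size or p of their difference.

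IPI-9119 blocks fatty acid synthase, the multi-domain enzyme that assembles palmitate. Cells sense a shortage of sterols and unsaturated fatty acids through the SREBP transcription factors, which switch on the genes of lipid synthesis and uptake, and an excess of oxysterols through the LXR receptors, which switch on sterol export. A shortage of amino acids or a stress on protein synthesis is sensed through kinases that raise translation of ATF4, a transcription factor of amino acid synthesis, transport and tRNA charging. Prostate cells also respond to androgens, which induce KLK3 and TMPRSS2.

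Values are normalised read counts (reads per gene, scaled per library by the submitters) and are given for replicates 1, 2 and 3 in that order. Effects and differences are on the log2(value + 1) scale, ± standard error, from a limma fit of the 12 libraries, and a gene is called at a Benjamini-Hochberg adjusted p under 0.05. A difference above 0 means that the gene rose more, or fell less, in 22Rv1 than in LNCaP. The 12 libraries held 15642743 to 25731706 reads in genes. LNCaP DMSO replicate 1 and 22Rv1 DMSO replicate 1 lay farthest from the other libraries of their groups, at a median distance of 0.22 per gene on the log2 scale, against 0.10 to 0.14 for the other 10. 22Rv1 DMSO replicate 3 had 18444 genes above 0, and the other 5 libraries of that line had 15585 to 15860. Luminal markers of the prostate were high in every library, with KRT18 at 12946 to 20935, except that KLK3 was far lower in 22Rv1 than in LNCaP. Of the basal markers, KRT5 and TP63 were at 6.19 or below throughout, and PTPRC, CD3E, PECAM1, CDH5 and PDGFRA, which mark leukocytes, endothelium and fibroblasts, were at 9.28 or below. COL1A1, another fibroblast marker, stood at 202 to 441 in every library. The endothelial list nevertheless summed to 198 to 361 in LNCaP and to at most 23.7 in 22Rv1, nearly all of it from VWF. Some other members of these lists were not low either. The basal marker DST stood at 237 to 1536. The leukocyte marker CD68 was at most 27.5 in LNCaP with DMSO and at 63.4 to 77 with 500 nM. The fibroblast marker LUM was at 54.1 to 129 in 22Rv1. Of the neuroendocrine markers, SYP stood at 1069 to 1244, ENO2 at 3326 to 3712 and CHGB at 588 to 734 in 22Rv1. In LNCaP they were at most 18.5, 553 and 1.68. In such bulk samples, fewer cells of a type and less RNA per cell cannot be told apart.

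The first question was how far the lines shared their response. Most of the called differences were changes seen in LNCaP and not, or less, in 22Rv1. Limma called a difference in 1547 of 12005 genes, a background of 12.9%, with 746 above 0 (6.21%) and 801 below 0 (6.67%), and 560 of them had a ratio of fold changes of at least 2. The 500 nM effect itself was called in 2943 genes in LNCaP (24.5%) and in 952 in 22Rv1 (7.93%), with 1512 up (12.6%) and 1431 down (11.9%) in LNCaP and 557 up (4.64%) and 395 down (3.29%) in 22Rv1. The difference was called in 39.8% of the LNCaP calls and in 35.6% of the 22Rv1 calls. Among the 1547 genes, 569 had risen in LNCaP with no call in 22Rv1, and 482 had fallen in LNCaP with no call in 22Rv1. A further 119 had risen and 100 had fallen in 22Rv1 with no call in LNCaP. Opposite calls were made in 88 genes, 56 of them lower in LNCaP and higher in 22Rv1, and 32 the other way. The effect was larger in LNCaP in 1167 of the 1547 (75.4%), and in 58.2% of all genes tested. Across all 12005 genes the effects in the lines, which share no library, had a Pearson r of 0.20, and a further 257 genes were called in both lines in the same direction, 177 higher and 80 lower, without a called difference.

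**Figure D1:**
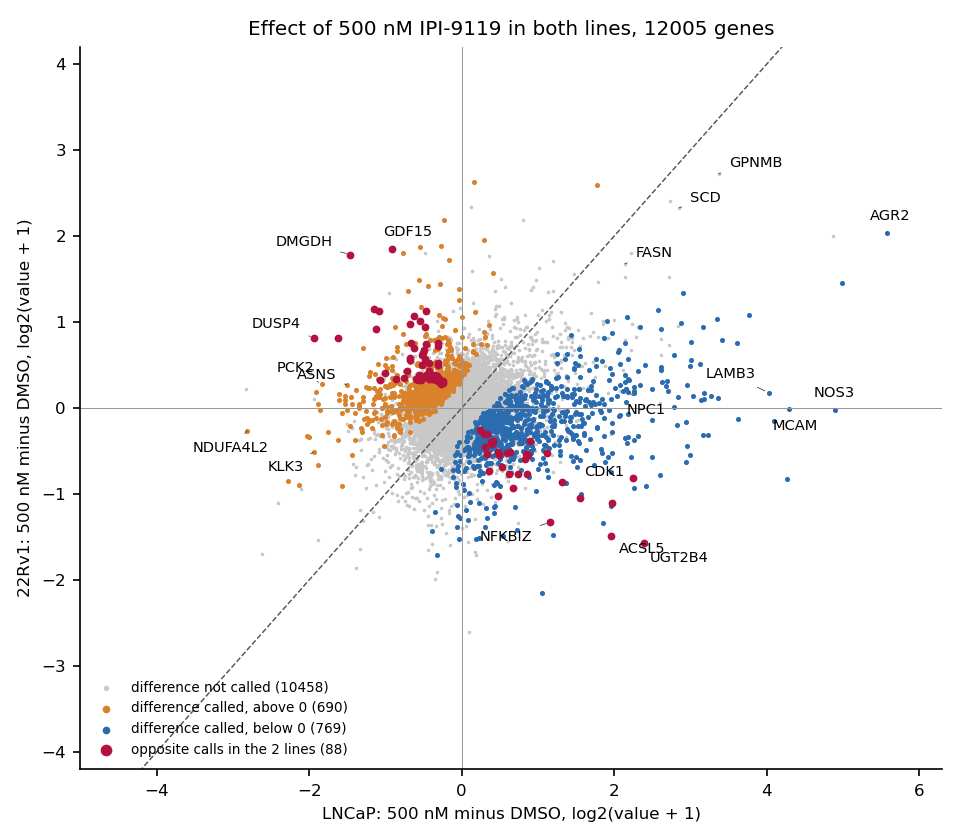
Effect of 500 nM IPI-9119 in LNCaP (horizontal axis) and in 22Rv1 (vertical axis), each point 1 of 12005 genes, on the log2(value + 1) scale, with equal effects on the dashed line. Genes with a called difference spread mainly along the horizontal axis, and the 88 genes with opposite calls lie at upper left and lower right.

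The count of calls depended on single libraries. It was 998 without LNCaP 500 nM replicate 2, 1012 without LNCaP 500 nM replicate 3 and 2488 without LNCaP DMSO replicate 1. Scaling all libraries to the same total moved the median difference of all genes from 0.01 to -0.14 and the share of calls above 0 from 48.2% to 21.5% (423 above and 1541 below 0 of 1964), so directions below are read against the median of all genes. Nothing in the labels says that replicates were separate cultures, and the p-values rest on the variation among the libraries alone, which could be technical. Of the 115 genes named below with a called difference, 87 were called in each of the 12 fits leaving out 1 library in which they were tested. Among these 87, NPC1L1, ELOVL4, KIAA0408, PDGFA, RSAD2 and PSMB9 were tested in only 9 of the 12. None of the 115 changed sign in any fit.

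Lipid synthesis came first among the groups examined, since the drug acts there. FASN, the target, rose in both lines. It stood at 54998, 29273 and 28676 in LNCaP with DMSO and at 234767, 133676 and 126294 with 500 nM, and in 22Rv1 at 53463, 39826 and 43153 and at 151109, 136199.8 and 146463. In both lines the treated libraries lay above all DMSO libraries, as they did, higher or lower, in 40.7% of all genes in LNCaP and 31% in 22Rv1. The fitted rise was 4.41-fold in LNCaP and 3.20-fold in 22Rv1, and the difference of -0.46 ± 0.35 was not called (95% interval -1.20 to 0.28, limma adjusted p = 0.429). However, it passed at -0.77 (adjusted p = 0.0497) without LNCaP DMSO replicate 1 and at -0.49 (adjusted p = 0.0384) with LNCaP replicates 2 and 3 only. It also passed with replicate number fitted as a block within each line (limma adjusted p = 0.0171). The missing call thus depended both on LNCaP replicate 1 and on leaving the libraries unpaired. SCD, the desaturase that makes oleate, differed by -0.52 (95% interval -1.50 to 0.45), and was called at -1.07 (adjusted p = 0.0016) without the same library, at -0.90 (adjusted p = 0.00199) with LNCaP replicates 2 and 3 only and at -1.02 (adjusted p = 0.00197) with array weights, which weigh down libraries that lie apart. SREBF1, which encodes the SREBP of fatty acid synthesis, rose 2.29-fold and 2.57-fold, with a difference of 0.16 (95% interval -0.14 to 0.47). None of the 9 tested genes of fatty acid synthesis and malonyl-CoA supply had a called difference, and their median was 0.09.

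Of 20 cholesterol synthesis genes, 17 rose in LNCaP and 13 in 22Rv1, and of 12 SREBP and sterol uptake genes 9 rose in LNCaP and 4 in 22Rv1. NPC1, which moves cholesterol out of lysosomes, showed the smallest p of this group. Its values were 1773, 1441 and 1334 in LNCaP with DMSO and 6517, 6871 and 6764 with 500 nM, a 4.46-fold rise, against 671, 713 and 697 and then 851, 788 and 793 in 22Rv1, a 1.17-fold change that was not called. The treated libraries lay above the DMSO libraries in both lines, and the difference was -1.93 ± 0.13 (adjusted p = 5.72e-06). INSIG1, which holds the SREBP precursors in the endoplasmic reticulum, stood at 1146, 495 and 542 and then 8043, 3855 and 3903 in LNCaP, and at 3417, 3161 and 3676 and then 7340.0, 6372 and 6694 in 22Rv1. With 500 nM, LNCaP replicate 1 alone exceeded the 22Rv1 libraries. Its rise of 7.32-fold in LNCaP and 1.99-fold in 22Rv1 gave a difference of -1.88 ± 0.41 (adjusted p = 0.00821). FDFT1, squalene synthase and the first enzyme committed to sterols, differed by -1.39 ± 0.26 (adjusted p = 0.00376), after rises of 2.06 in LNCaP and 0.67 in 22Rv1.

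Of 20 tested genes of cholesterol synthesis, 0 had a called difference above 0 and 7 below 0, with a median of -0.61 against 0.01 for all genes. The list's median effect was 1.20 in LNCaP and 0.68 in 22Rv1. Besides FDFT1, the enzymes IDI1 (-0.85) and SQLE (-0.79, the epoxidase that oxidises squalene) kept their calls with any 1 library left out. The calls of HMGCS1 (-1.11), FDPS (-1.03), LSS (-0.89) and EBP (-0.91), other enzymes of the pathway, were each lost without LNCaP DMSO replicate 2 or 3, 22Rv1 DMSO replicate 1, or 22Rv1 500 nM replicate 2 or 3. The list's count was then 3 in each case, 4 without 22Rv1 DMSO replicate 3 or 22Rv1 500 nM replicate 1, and 11 without LNCaP DMSO replicate 1. Of 12 SREBP factors, regulators and sterol uptake genes, 0 were called above 0 and 6 below, with a median of -0.67. Among these were NPC1, INSIG1, INSIG2 (-0.94), the intestinal sterol carrier NPC1L1 (-3.39) and STARD4 (-1.40), but NPC1L1 passed the filter only through treated LNCaP. The count fell to 3 without LNCaP 500 nM replicate 1 or 3, fits in which NPC1L1 was not tested. STARD4 kept its call in 4 of the 12 fits that left out 1 library (adjusted p up to 0.0703). The cholesterol list's mean log2 level in LNCaP was 10.73, 10.42 and 10.43 with DMSO and 12.05, 11.46 and 11.47 with 500 nM, so treated replicate 1 lay highest. Taking the spread from the 18 libraries of both lines ended the calls of INSIG1 (adjusted p = 0.076), IDI1 (0.0657) and STARD4 (0.0713), and of the 4 enzymes above (0.0563 to 0.204).

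Other lipid genes differed singly. LPIN1, a phosphatidate phosphatase on the way to triglycerides, stood at 572, 465 and 459 and then 4006, 2458 and 2665 in LNCaP, and at 568, 526 and 656 and then 1168, 1423 and 1268 in 22Rv1. From nearly the same DMSO level, the rise was 5.98-fold in LNCaP and 2.21-fold in 22Rv1, and no treated library overlapped a DMSO library (difference -1.44 ± 0.23, adjusted p = 0.00117, but 0.0593 with the spread of 18 libraries). DGAT2, which makes triglycerides, was the other called member of 13 (-0.89), and the list's median was 0.02. ELOVL6, the elongase that acts on palmitate, differed by -1.40 ± 0.27 (adjusted p = 0.00418). Of 13 genes of elongation and desaturation, 1 was called above 0 (HSD17B12, at 0.72) and 4 below 0, ELOVL6, ELOVL4 (-1.78), FADS2 (-1.05) and PTPLAD1 (-0.61), with a median of -0.37. ELOVL4 passed the filter only through treated LNCaP. FADS2, a desaturase of polyunsaturated fatty acids, lost its call without LNCaP DMSO replicate 2 or 3 or 22Rv1 500 nM replicate 2 or 3, and PTPLAD1 without LNCaP 500 nM replicate 3, 22Rv1 DMSO replicate 2 or 3, or 22Rv1 500 nM replicate 3. Of 11 genes of fatty acid uptake and activation, ACSL3 (0.60) was above 0 and SLC27A2 (-0.66), ACSL4 (-1.19) and ACSL5 (-3.45) below, with a median of -0.13. The acyl-CoA synthetases thus went both ways, although ACSL3 lost its call without LNCaP 500 nM replicate 2 or 22Rv1 500 nM replicate 2, and ACSL4 without LNCaP 500 nM replicate 1, 22Rv1 DMSO replicate 3, or 22Rv1 500 nM replicate 1 or 2.

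CPT1A, the gate of fatty acid entry into mitochondria, fell in both lines and fell further in LNCaP. Its values went from 3752, 3322 and 3189 to 1107, 1121 and 1209.8 in LNCaP and from 3081, 3050.4 and 3082 to 1409, 1783 and 1740.3 in 22Rv1. The lines had like DMSO levels, and all treated LNCaP libraries lay below all treated 22Rv1 libraries (difference 0.67 ± 0.13, adjusted p = 0.00536). That call was lost when the spread was taken from the 18 libraries of both lines (adjusted p = 0.17) or from all 27 (adjusted p = 0.0936). Of 21 oxidation genes, CPT1A, ACADVL (0.64) and HADHA (0.39) were called above 0 and HADH (-0.58) below, with a median of -0.08. ABCG1, the LXR-driven sterol exporter, rose further in 22Rv1. It went from 434, 573 and 575 to 1555, 1883 and 1938 in LNCaP, 3.41-fold, and from 60.6, 71 and 51.6 to 366, 349 and 398 in 22Rv1, 6.04-fold. Its level stayed higher in LNCaP throughout, and the difference of 0.82 ± 0.21 (adjusted p = 0.0181) lost its call without LNCaP 500 nM replicate 1 (0.73, adjusted p = 0.0513) and at equal totals (0.67, adjusted p = 0.0503). Of 6 tested LXR receptors and targets, ABCG1 and NR1H2 (0.46), which encodes LXR beta, were called above 0 and 0 below, with a median of 0.48. NR1H2 kept its call in 3 of the 12 fits that left out 1 library, those without LNCaP DMSO replicate 1, 22Rv1 DMSO replicate 1 or 22Rv1 500 nM replicate 2.

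**Figure D2:**
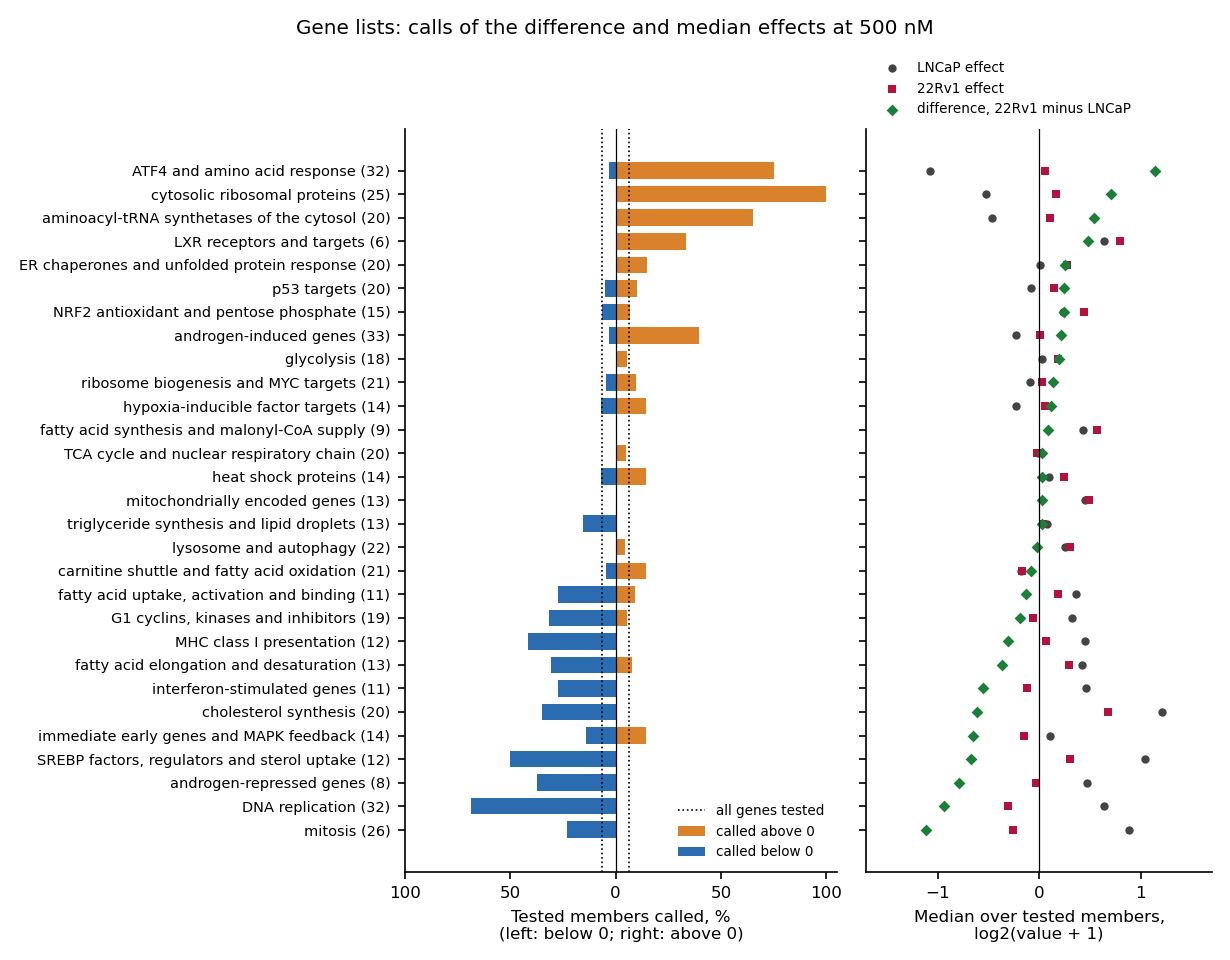
Left, the share of each list's tested members (number in brackets) whose difference was called above 0 (orange) or below 0 (blue), with dotted lines at the shares over all genes, 6.21% and 6.67%. Right, the list's median effect in LNCaP, in 22Rv1, and its median difference. Listed ribosomal proteins, a part of the family, were called above 0 in 25 of 25, and ATF4 genes in 24 of 32.

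Of 32 genes of the ATF4 and amino acid response, 26 fell in LNCaP and 2 in 22Rv1. Promoters of 3 members are shown first, because they hold the core of the element that ATF4 binds together with C/EBP proteins. Each is the 250 bases before the gene's start in RefSeq's table (build GRCh38.p14), 5′ to 3′ on the gene's own strand, with the match in capitals. ASNS lies on the minus strand at chr7:97872409-97872658, CHAC1 on the plus strand at chr15:40953221-40953470, and ATF3 on the plus strand at chr1:212565157-212565406.
ASNS: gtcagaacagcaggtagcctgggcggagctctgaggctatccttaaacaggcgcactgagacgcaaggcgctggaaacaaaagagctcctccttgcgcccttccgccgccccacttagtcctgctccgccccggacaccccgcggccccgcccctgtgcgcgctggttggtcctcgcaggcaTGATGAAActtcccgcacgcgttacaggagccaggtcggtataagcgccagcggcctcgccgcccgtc
CHAC1: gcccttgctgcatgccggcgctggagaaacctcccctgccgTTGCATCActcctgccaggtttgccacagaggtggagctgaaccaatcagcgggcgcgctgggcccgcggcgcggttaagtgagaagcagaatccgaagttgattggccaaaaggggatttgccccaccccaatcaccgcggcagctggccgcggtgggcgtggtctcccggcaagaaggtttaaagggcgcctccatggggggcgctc
ATF3: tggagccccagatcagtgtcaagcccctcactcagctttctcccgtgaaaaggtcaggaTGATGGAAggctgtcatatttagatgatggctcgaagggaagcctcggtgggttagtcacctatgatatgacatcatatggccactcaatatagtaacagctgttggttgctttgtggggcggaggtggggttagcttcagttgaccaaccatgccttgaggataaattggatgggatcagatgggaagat

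The motif searched was TGATGNAA, N being any base, on both strands, and in CHAC1 it lies on the other strand. It occurred in 3 of the 27 tested list members with a promoter in the table (11.1%), in 1.28% of 9885 tested genes with one, and in 3.14% of all 35116 promoters. The sterol element core TCACNCCAC occurred in 0 of 15 cholesterol synthesis genes with a promoter and in 0.85% of the tested genes. A match is a stretch of letters only. The genes that share it did not share a direction, since ASNS (1.78) and CHAC1 (1.21) had differences above 0 and ATF3 (-1.41) had one below 0.

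ASNS, asparagine synthetase, went from 12165, 16645 and 18248 to 4261, 6252 and 6027 in LNCaP, and from 10423, 14215 and 9403 to 13531, 14131 and 12795 in 22Rv1. The LNCaP groups did not overlap and the 22Rv1 groups did. That is a fall of 2.84-fold in LNCaP and a ratio of 1.21 in 22Rv1, a difference of 1.78 ± 0.25 (adjusted p = 0.000498). PCK2, the mitochondrial PEP carboxykinase, fell from 17592, 18522 and 19469 to 4483, 5863 and 5366 in LNCaP, and read 4699.6, 6433 and 3864 and then 5850.4, 5816 and 6068 in 22Rv1. With the drug, LNCaP came down to the range of untreated 22Rv1 (difference 2.10 ± 0.20, adjusted p = 3.18e-05). PHGDH, which opens serine synthesis, fell from 28956, 32740.3 and 34783 to 12003, 15487 and 14082 in LNCaP and read 12339, 13367 and 10442 and then 13493, 14034 and 14707 in 22Rv1 (difference 1.45 ± 0.15, adjusted p = 5.19e-05). SLC1A5, a glutamine carrier, differed by 1.77 ± 0.16, the serine hydroxymethyltransferase SHMT2 by 1.23 ± 0.12, and ATF4 itself by 1.02 ± 0.19 (adjusted p = 0.00287).

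Of 32 tested members, 24 were called above 0 and 1 below 0, the latter ATF3, against backgrounds of 6.21% and 6.67%. The list's median difference was 1.14, made of -1.07 in LNCaP, where 26 fell and 1 rose, and 0.05 in 22Rv1, where 2 fell and 1 rose. Between 20 and 26 members were called above 0 whichever library was left out. Not every stress gene had a called difference. DDIT3, a pro-death factor downstream of ATF4, differed by -0.33 (adjusted p = 0.442, and -0.60 with 0.0422 without 22Rv1 DMSO replicate 3) and SESN2, a leucine sensor, by 0.29 (adjusted p = 0.513). The treated libraries of LNCaP nevertheless lay below its DMSO libraries for SESN2, while the 22Rv1 groups overlapped. For DDIT3 the groups overlapped in both lines. CHAC1, a glutathione-degrading enzyme, lost its call without LNCaP DMSO replicate 2 or 3, 22Rv1 DMSO replicate 3, 22Rv1 500 nM replicate 2 or 3, or at equal totals (adjusted p = 0.0522). The cystine carrier SLC7A11 (1.61, adjusted p = 0.0464) kept its call in 4 of 12 such fits, those without LNCaP DMSO replicate 1, LNCaP 500 nM replicate 3, or 22Rv1 DMSO replicate 1 or 2. At 100 nM, tested against the same 6 DMSO libraries, 28 members were called above 0 and 0 below, the background there being 3.52% and 5.17%. LNCaP95, whose libraries enter neither line's effect, had a list median of 1.04, with ASNS at 1.18, PCK2 at 1.60 and SLC1A5 at 0.83.

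The enzymes that charge tRNAs, which ATF4 also drives, also differed. In LNCaP 14 of 20 fell and 0 rose, and in 22Rv1 0 fell and 2 rose. WARS, for tryptophan, went from 4075, 4244 and 4506 to 3244, 3625 and 3435 in LNCaP and from 1833, 1894 and 1695 to 3019.8, 3037 and 3063 in 22Rv1. It fell in LNCaP and rose in 22Rv1, with no overlap in either (difference 1.07 ± 0.10, adjusted p = 3.18e-05). SARS, for serine, differed by 1.41 ± 0.16, IARS by 0.90 ± 0.12 and AARS by 1.08 ± 0.14. Of the 20 cytosolic synthetases, 13 were called above 0 and 0 below, with a median of 0.54, and 12 to 14 were called with 1 library left out.

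**Figure D3:**
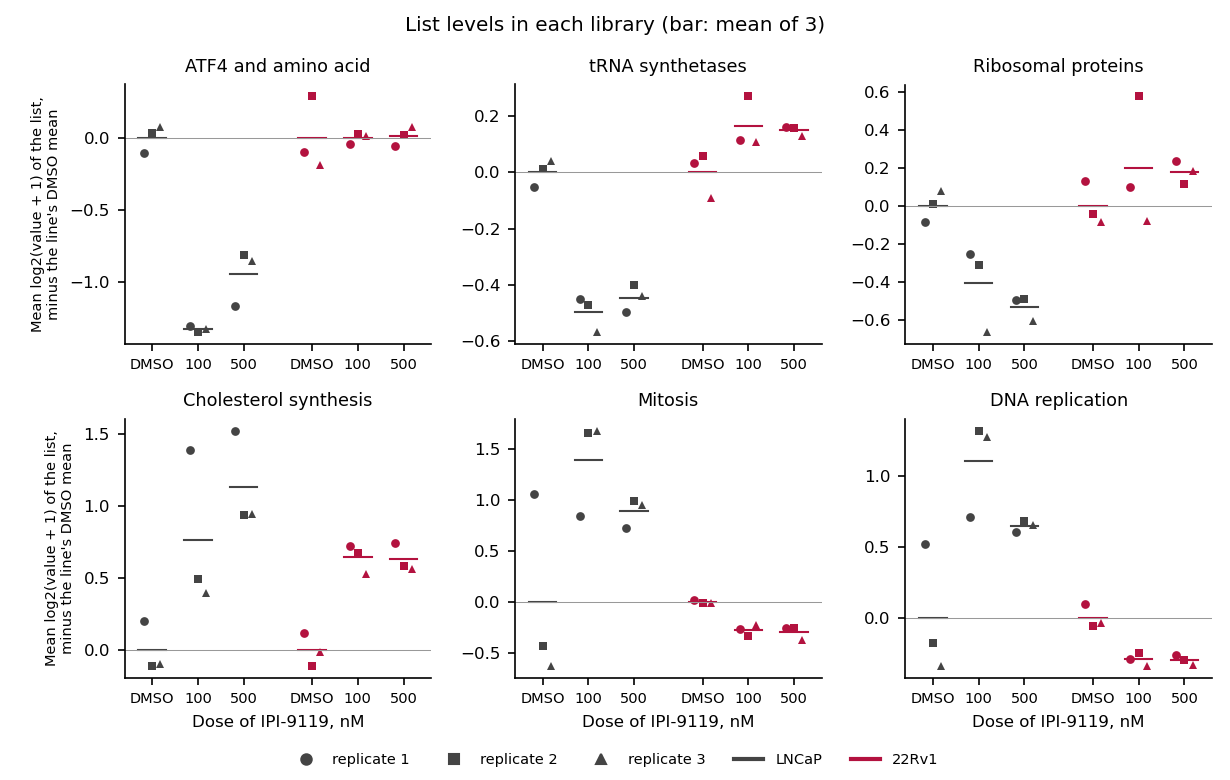
Mean log2(value + 1) over the members of 6 lists in each library of LNCaP (grey) and 22Rv1 (red), by dose of IPI-9119, with the mean of the line's 3 DMSO libraries set to 0; marker shapes are replicates and bars are means. ATF4 genes, tRNA synthetases and ribosomal proteins lie below DMSO in treated LNCaP, and LNCaP DMSO replicate 1 lies apart in mitosis and DNA replication.

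All 25 ribosomal protein genes of the list fell in LNCaP, and in 22Rv1 0 fell and 2 rose. The list is a chosen part of the family, and its other members were not examined. RPS3, of the small subunit, went from 50484, 49873 and 50328 to 31942, 31156 and 29749 in LNCaP, and from 37245, 32001 and 32614 to 39356, 36677 and 38643 in 22Rv1. The LNCaP groups lay far apart and the 22Rv1 groups overlapped (difference 0.87 ± 0.11, adjusted p = 0.000161). RPL4, of the large subunit, differed by 0.84 ± 0.12 and RPS19 by 0.81 ± 0.12. All 25 tested members were called above 0, with differences of 0.38 to 0.92 and a median of 0.71, and 24 or 25 were called whichever library was left out. These values depend on scaling more than those of other lists: at equal totals 24 were called with a median of 0.55, and after quantile normalisation 8 were called with a median of 0.26. The list took 6.49% to 7.42% of all counts in the LNCaP DMSO libraries, 4.97% to 5.19% with 500 nM, and 5.09% to 5.85% over the 6 libraries of 22Rv1. Many of these genes have processed pseudogenes that can share their reads, which makes single values uncertain. At 100 nM, 4 of 25 were called above 0 and 0 below, with a median of 0.62. In LNCaP95 the median effect was 0.09. Of 21 genes of ribosome biogenesis, NPM1 (0.57) and ODC1 (0.78, the first enzyme of polyamine synthesis) were called above 0 and NOP58 (-0.45) below, with a median of 0.13. NOP58 kept its call in 5 of the 12 fits that left out 1 library, and NPM1 was at 0.10 (adjusted p = 0.519) after quantile normalisation.

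Of 26 mitosis genes 13 rose in LNCaP and 0 were called in 22Rv1, and of 32 DNA replication genes 20 rose in LNCaP and 3 fell in 22Rv1. CDK1, the kinase of mitotic entry, stood at 1992, 960.4 and 889 in LNCaP with DMSO and at 3015, 3537 and 3591 with 500 nM, and at 3579, 3297 and 3206 and then 2439.5, 2310.0 and 2034 in 22Rv1. Neither line's groups overlapped, but LNCaP DMSO replicate 1 lay well above the other DMSO libraries of its line. The rise in LNCaP was 2.82-fold, the change of -0.57 in 22Rv1 was not called, and the difference was -2.07 ± 0.31 (adjusted p = 0.000791). MKI67, a marker of cycling cells, read 1820.0, 534 and 374 in LNCaP with DMSO and 1506, 1489 and 1608 with 500 nM. Its groups overlapped through replicate 1, and the difference of -1.24 was not called (adjusted p = 0.155). With LNCaP replicates 2 and 3 only it was -1.93 (adjusted p = 1.27e-05).

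All 26 tested mitosis genes had differences below 0, from -0.65 to -2.07, with a median of -1.11, and 6 of them were called, CDK1 and CENPE (-1.40, a kinesin of the kinetochore) among them, with 0 above 0. CENPE missed the threshold with the spread of 18 libraries (adjusted p = 0.052). With LNCaP replicates 2 and 3 only, all 26 were called and the median was -1.80. The count was 26 without LNCaP DMSO replicate 1, and 2 to 4 without any other 1 of the 12 libraries. The list's mean log2 level was 10.08, 8.60 and 8.40 in LNCaP with DMSO and 9.75, 10.02 and 9.97 with 500 nM, and 11.45, 11.41 and 11.42 in 22Rv1 with DMSO and 11.17, 11.17 and 11.05 with 500 nM. In LNCaP, DMSO replicate 1 thus lay at the level of the treated libraries. What set that library apart was not tested. PCNA, the sliding clamp of the replication fork, went from 3006, 2539.9 and 2296 to 4012, 4176 and 4009 in LNCaP and from 12231, 9471 and 10211 to 8834, 8222 and 7702 in 22Rv1. All treated libraries of LNCaP lay above its DMSO libraries and all those of 22Rv1 below (difference -1.01 ± 0.15, adjusted p = 0.000871). TYMS, which makes thymidylate, differed by -1.51 ± 0.25, and the helicase subunits MCM4 and MCM6 by -1.13 and -0.93. Of 32 tested members, 22 were called below 0 and 0 above, with a median of -0.94, and 15 to 32 were called with 1 library left out.

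Around the entry into S phase, CCNE2, a cyclin partner of CDK2, went from 172, 126 and 109 to 382, 433 and 459.6 in LNCaP, and from 733, 773 and 787 to 801, 754 and 599.8 in 22Rv1. The gene rose 3.16-fold in LNCaP, and its 22Rv1 groups overlapped (difference -1.76 ± 0.22, adjusted p = 0.000206). The phosphatase CDC25A differed by -1.40 and E2F2, a transcription factor of S phase genes, by -2.07. CDKN1B, the inhibitor p27, went the other way, down by 0.30 in LNCaP and up by 0.31 in 22Rv1, a difference of 0.60 ± 0.12 (adjusted p = 0.00445). Of 19 genes of this list, CDKN1B was the 1 called above 0 and 6 were called below, with a median of -0.19 (4 to 7 below 0 with 1 library left out). LNCaP95 had medians of -1.37 for mitosis and -1.21 for DNA replication at 500 nM.

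Of 33 androgen-induced genes, 12 fell and 3 rose in LNCaP, and 4 fell and 2 rose in 22Rv1. KLK3, prostate-specific antigen, went from 12816, 12836 and 11703 to 2482, 3637 and 3752 in LNCaP and from 625, 568 and 494 to 383, 415 and 379 in 22Rv1. No group overlapped another, and treated LNCaP still held more than untreated 22Rv1. The fall was 3.84-fold in LNCaP and 1.43-fold in 22Rv1, a difference of 1.43 ± 0.19 (adjusted p = 0.000355). TMPRSS2, a surface protease, went from 13402, 9843 and 8751 to 5890.2, 3965 and 3775 in LNCaP and from 941, 705 and 814 to 842, 638 and 682 in 22Rv1, where the groups overlapped (difference 1.05 ± 0.26, adjusted p = 0.0169). TSC22D3, a leucine zipper protein induced by steroids, differed by 1.71 ± 0.18 and UAP1, which makes UDP-N-acetylglucosamine, by 1.22 ± 0.13. KLK2 (1.25, adjusted p = 0.0215) lost its call without LNCaP 500 nM replicate 3, 22Rv1 DMSO replicate 3 or 22Rv1 500 nM replicate 1.

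Of 33 tested androgen-induced genes, 13 were called above 0 and 1 below 0 (NCAPD3, at -0.71), with a median of 0.21. The count above 0 was 7 without LNCaP 500 nM replicate 3, and 8 without 22Rv1 DMSO replicate 3, 22Rv1 500 nM replicate 1 or 22Rv1 500 nM replicate 3, and the count below 0 was 5 without LNCaP DMSO replicate 1. Of 8 androgen-repressed genes, 0 were called above 0 and 3 below, UGT2B15 (-2.37), DDC (-1.49) and SI (-1.61), with a median of -0.79. UGT2B15, an androgen-glucuronidating enzyme, rose in LNCaP from 785, 2717 and 2893 to 3908, 8435 and 8657, and shares sequence with the other UGT2B genes, so its count is uncertain. DDC, the dopa decarboxylase, fell in 22Rv1 from 340.0, 417 and 398 to 123, 144 and 132, and stood at 2225, 4911 and 5068 and then 3699, 3718 and 3769 in LNCaP. The call of SI, an intestinal disaccharidase, was lost without LNCaP 500 nM replicate 2 or 3, 22Rv1 DMSO replicate 2 or 3, or 22Rv1 500 nM replicate 2 or 3.

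**Figure D4:**
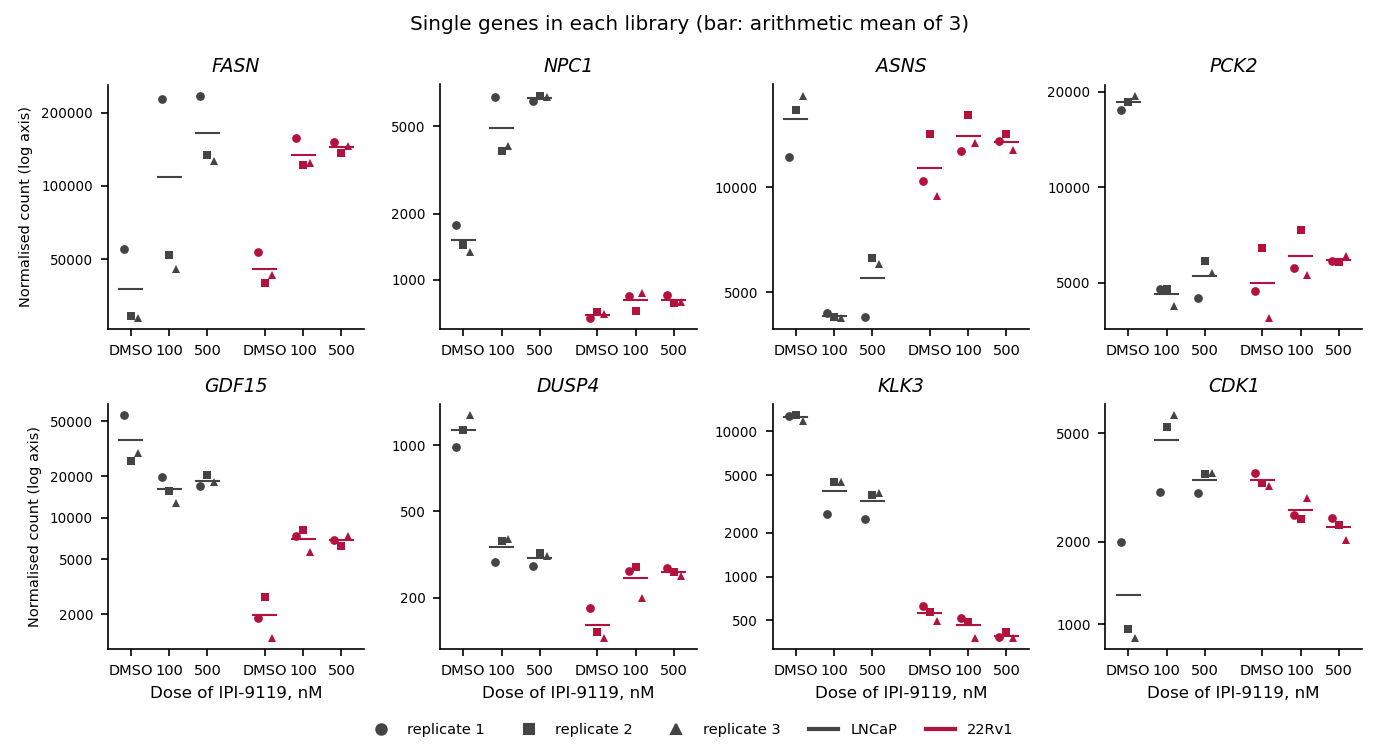
Normalised counts (log axis, with a scale of its own for each gene) of 8 genes in each LNCaP (grey) and 22Rv1 (red) library by dose of IPI-9119; marker shapes are replicates and bars are arithmetic means. ASNS, PCK2 and KLK3 drop in LNCaP, GDF15 and DUSP4 fall in LNCaP and rise in 22Rv1, and FASN rises in both lines.

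Of 12 genes of antigen presentation 6 rose and 1 fell in LNCaP, with 0 called in 22Rv1, and of 11 interferon-stimulated genes 6 rose in LNCaP and 1 in 22Rv1. TAPBP, tapasin, which loads peptides onto MHC class I, went from 628, 529 and 531 to 1368, 1228 and 1272 in LNCaP and from 998, 1117 and 993 to 883, 1061 and 1162 in 22Rv1. The LNCaP groups were apart and the 22Rv1 groups overlapped (difference -1.21 ± 0.16, adjusted p = 0.000265). B2M, the light chain of MHC class I, differed by -0.90 ± 0.14 (adjusted p = 0.00125). The immunoproteasome subunit PSMB9 (-2.49) and the antiviral enzyme RSAD2 (-2.70) were low in LNCaP with DMSO, at 5.69 or below and 6.64 or below, and reached at most 25.7 and 24.4 with 500 nM. Both passed the filter in LNCaP only through those treated libraries. Of 12 tested presentation genes, 0 were called above 0 and 5 below, with a median of -0.31. Besides those named these were TAP1 (-0.66) and NLRC5 (-2.02), whose calls held in 6 and 2 of the 12 fits that left out 1 library. The list's count fell to 2 without LNCaP 500 nM replicate 1 and to 3 without LNCaP DMSO replicate 2 or 3, LNCaP 500 nM replicate 2 or 3, 22Rv1 DMSO replicate 3, or 22Rv1 500 nM replicate 1 or 2. PSMB9 was not tested in the fits that left out a LNCaP 500 nM library. Of 20 interferon-stimulated genes, 11 passed the filter on low values, IFIT1 not among them. Of these, 0 were called above 0 and 3 below, RSAD2, the RNA sensor IFIH1 (-1.07) and OAS3 (-1.78), with a median of -0.55, and OAS3 kept its call in 2 of the 12 fits.

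Of the 88 genes with opposite calls, those with the largest effect in their weaker line were read in full. GDF15, a cytokine released under stress, fell in LNCaP from 55017, 25974 and 29463 to 16927, 20402 and 18151 and rose in 22Rv1 from 1882, 2682 and 1353 to 6878, 6277 and 7431. LNCaP DMSO replicate 1 lay highest, and no group overlapped another (difference 2.77 ± 0.35, adjusted p = 0.000226). DUSP4, a phosphatase that switches off ERK, fell from 981, 1176 and 1370.2 to 280.2, 321 and 312 in LNCaP and rose from 181, 139.6 and 131 to 274, 263 and 252 in 22Rv1. The lines ended close together with 500 nM, and the difference of 2.75 ± 0.20 had an adjusted p of 7.58e-06. DMGDH, a mitochondrial enzyme of choline breakdown, fell from 96.9, 188 and 183 to 34.5, 61.9 and 72 in LNCaP and rose from 19.8, 44.5 and 34 to 109, 103 and 117 in 22Rv1, the largest difference above 0 among the genes tested (3.25 ± 0.47, adjusted p = 0.000639). FAM129A, a target of ATF4, moved likewise (2.22 ± 0.37), as did EFCC1 (2.31 ± 0.35) and the phosphodiesterase PDE2A (2.05 ± 0.37).

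In the other orientation, UGT2B4, a glucuronidating enzyme of bile acids, rose in LNCaP from 24.2, 38.9 and 29 to 139, 175 and 174 and fell in 22Rv1 from 117, 238 and 177 to 53, 61.2 and 56.7. The order of the lines was reversed by the drug (difference -3.95 ± 0.34, adjusted p = 2.36e-05), with the same doubt about shared reads as UGT2B15. ACSL5, an acyl-CoA synthetase of mitochondria and endoplasmic reticulum, rose from 13.8, 9.48 and 16 to 48, 52.5 and 58 in LNCaP and fell from 61.9, 44.5 and 55.7 to 16.9, 18 and 20.5 in 22Rv1 (difference -3.45 ± 0.35, adjusted p = 4.2e-05). Each line ended near where the other began. TMOD1, which caps actin filaments, differed by -2.60 ± 0.30, and GMPR, which converts GMP to IMP, by -2.18 ± 0.27. NFKBIZ, which encodes a member of the I-kappa-B family, differed by -2.49 ± 0.48, and its LNCaP groups overlapped (6.92, 26.5 and 14 with DMSO, then 26.1, 36 and 35.6). KIAA0408 differed by -3.08 ± 0.32 but stood in LNCaP DMSO libraries at 2.31, 2.84 and 3, where 1 read is worth 0.948 to 1.15. It passed the filter in LNCaP only through the treated libraries.

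**Figure D5:**
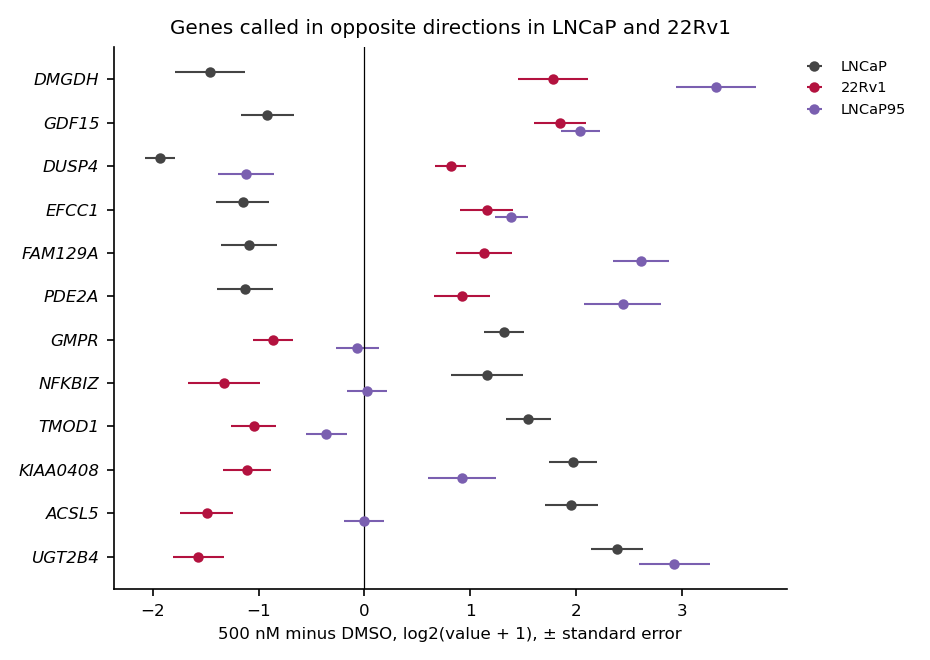
Effect of 500 nM IPI-9119, ± standard error, in LNCaP, 22Rv1 and LNCaP95 for the 12 genes read in full among those with opposite calls in LNCaP and 22Rv1, from a limma fit of the 12 libraries and, for LNCaP95, of its own 6. LNCaP95 lies on the 22Rv1 side of 0 for GDF15, DMGDH, EFCC1, FAM129A and PDE2A and on the LNCaP side for DUSP4, UGT2B4 and KIAA0408.

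The largest called differences below 0, among genes with a mean of 50 or more in some group, were mostly genes that rose in LNCaP. NOS3, endothelial nitric oxide synthase, rose from 139.6, 31.3 and 34 to 1988, 1494 and 1408 in LNCaP and stood at 2790.0, 2611 and 2619.7 and then 2477, 2531 and 2912 in 22Rv1. LNCaP with the drug reached towards the level 22Rv1 held in either state (difference -4.92 ± 0.55, adjusted p = 7.66e-05). AGR2, a protein disulfide isomerase, rose in both lines, from 8.08, 8.53 and 15 to 383, 641 and 607 in LNCaP and from 75.1, 75.8 and 75.3 to 409, 277 and 269 in 22Rv1. The rise was 47.7-fold and 4.10-fold, a difference of -3.54 ± 0.35 (adjusted p = 3.44e-05). LAMB3, a laminin chain, rose from 10.4, 12.3 and 9.99 to 183, 201 and 193 in LNCaP and read 96.2, 69.8 and 61.9 and then 103, 70.8 and 83.3 in 22Rv1 (difference -3.85 ± 0.29). UGT2B10 (-4.26 ± 0.42), MYBPC1 (-3.54 ± 0.49) and the receptor phosphatase PTPRB (-3.48 ± 0.54) behaved likewise, rising in LNCaP with no call in 22Rv1. COL3A1, a fibrillar collagen and 1 of 2 tested fibroblast markers, rose in LNCaP from 17.3, 17.1 and 18 to 119, 169.9 and 137 (difference -3.57 ± 0.37), and the other tested fibroblast marker, COL1A1, also rose in LNCaP, from 272, 293 and 248 to 305, 438 and 441, with no called difference. PDGFRA and COL1A2, further fibroblast markers, were at 0 in all LNCaP libraries.

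On the positive side, NDUFA4L2, a mitochondrial protein induced by hypoxia, fell in LNCaP from 248, 183 and 205 to 24.4, 29 and 34.8 and read 253, 201 and 182 and then 207, 164 and 156 in 22Rv1. From like DMSO levels only the LNCaP groups separated (difference 2.55 ± 0.27, adjusted p = 4.78e-05). ASS1, the enzyme that makes argininosuccinate, fell from 2720.2, 2715 and 2769 to 761, 953 and 958 in LNCaP and rose from 50.1, 74.6 and 68.1 to 107, 107 and 123 in 22Rv1 (difference 2.44 ± 0.20, adjusted p = 1.71e-05). PDGFA, a growth factor, rose in 22Rv1 alone, from 2.64, 4.82 and 5.16 to 18, 21.6 and 27.8, with 73.9, 149.8 and 172 and then 119, 101 and 97.7 in LNCaP (difference 2.42 ± 0.46, adjusted p = 0.00339). It passed the filter in 22Rv1 only through the treated libraries.

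Some large effects were called in both lines in the same direction. GPNMB, a lysosomal membrane glycoprotein, rose from 122, 63.5 and 63.0 to 959, 752 and 777 in LNCaP and from 163, 152 and 142 to 1179.8, 896 and 984 in 22Rv1, 10.3-fold and 6.62-fold. The difference of -0.64 was not called (95% interval -1.28 to -0.00, adjusted p = 0.182), but was called at -0.96 (adjusted p = 0.00199) without LNCaP DMSO replicate 1, at -0.85 (adjusted p = 0.0057) with LNCaP replicates 2 and 3 only, and at -0.93 (adjusted p = 0.000759) with array weights. IGFBP3, which binds insulin-like growth factors, rose 6.65-fold and 5.33-fold, with a difference of -0.32 (95% interval -1.13 to 0.50). BCHE, butyrylcholinesterase, fell 2.51-fold and 3.11-fold, with a difference of -0.31 (95% interval -1.01 to 0.40). A missing call does not show that the effects were equal, and the intervals give the range around each difference.

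The remaining lists had few calls. Of 20 endoplasmic reticulum chaperones and unfolded protein response genes, XBP1 (1.05), SEL1L (0.86) and ATF6 (0.57) were called above 0 and 0 below (median 0.25), but SEL1L and ATF6 kept their calls in 5 and 6 of the 12 fits that left out 1 library. Of 20 p53 targets, GDF15 and CCNG1 (0.82) were above 0 and the death receptor FAS (-1.40) below (median 0.25). The 14 hypoxia targets had VEGFA (0.76) and NDUFA4L2 above 0 and EGLN3 (-1.53, kept in 2 of 12 fits) below (median 0.11). The 18 glycolysis genes had PFKM (0.48) above 0 and 0 below (0.20), a call lost without LNCaP 500 nM replicate 3 and at equal totals. The 20 genes of the TCA cycle and respiratory chain had IDH3A (0.53) above and 0 below (0.03), a call lost at equal totals (adjusted p = 0.0514). The 15 NRF2 and pentose phosphate genes had SLC7A11 above 0 and 1 below (0.24). The 14 heat shock genes had HSPA8 (0.82) and HSP90AB1 (0.48, but 0.00 after quantile normalisation) above 0 and HSPB1 (-0.66) below (0.03), the last not called without LNCaP 500 nM replicate 2 or 22Rv1 500 nM replicate 2. The 22 lysosome and autophagy genes had HEXA (0.41, kept in 2 of 12 fits) above and 0 below (-0.03), and the 13 mitochondrially encoded genes had 0 called (0.03). Of 14 immediate early and MAPK feedback genes, DUSP4 and SPRED1 (1.17), both brakes on ERK signalling, were above 0 and JUNB (-0.88) and SPRY4 (-2.32) below (-0.65). SPRY4, which passed the filter only through treated LNCaP, was tested in 9 of the 12 fits and called in 7. It lost its call without 22Rv1 DMSO replicate 2 or 22Rv1 500 nM replicate 1. Of 8 luminal markers, KLK3 and KRT18 (0.45) were above 0 and KRT8 (-0.42) below (0.15). KRT18 lost its call without LNCaP DMSO replicate 3, LNCaP 500 nM replicate 1 or 3, 22Rv1 DMSO replicate 2 or 3, or 22Rv1 500 nM replicate 1, and KRT8 without LNCaP 500 nM replicate 2. The median of the glycolysis, hypoxia, TCA, heat shock, mitochondrial, ribosome biogenesis and luminal lists changed sign under another scaling, as did those of fatty acid synthesis and triglyceride synthesis. Those of other cell types had 1 tested basal, 2 neuroendocrine, 2 fibroblast, 1 leukocyte and 0 endothelial gene, of which COL3A1 alone was called.

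At 100 nM the difference between the lines was called in 1043 of the 12005 genes (8.69%), 422 above 0 and 621 below. That test shares its 6 DMSO libraries with the one at 500 nM, so the values are given side by side only. In LNCaP with 100 nM, replicate 1 stood apart in lipid genes, with FASN at 227517 against 51994 and 45537 in replicates 2 and 3, and INSIG1 at 6229.9 against 1185 and 1137. Without that library 1137 differences were called. NPC1 was at -1.43 with 100 nM and -1.93 with 500 nM, KLK3 at 1.43 at both doses, CDK1 at -2.29 and -2.07, GDF15 at 3.01 and 2.77, ASNS at 2.17 and 1.78, and NOS3 at -4.51 and -4.92. INSIG1 (-0.61) and FDFT1 (-0.66) were not called at 100 nM. The cholesterol synthesis median was -0.08 with 100 nM and -0.61 with 500 nM, and the DNA replication median -1.39 and -0.94, with 27 of 32 called at 100 nM. The 100 nM count was 1905 without LNCaP DMSO replicate 1, and fell to 525 without LNCaP DMSO replicate 3. In LNCaP95, the effect of 500 nM lay nearer to that of LNCaP than to that of 22Rv1 in 345 of the 1547 genes with a called difference (22.3%), and in 39.8% of all genes tested. A line with no response would lie nearer to whichever line moved less. That was 22Rv1 in 75.4% of the 1547 and in 58.2% of all genes, so these shares do not show that LNCaP95 responded like 22Rv1.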

How the data were processed

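Total RNA was sequenced as paired-end, directional poly(A) libraries, per the labels' protocols. The deposited table gives a normalised signal per gene: per the submitters' processing notes, reads were aligned with STAR 2.3.1z4 to hg19, counted with featureCounts and scaled with DESeq. Whole reads were recovered for 100% of values within a tolerance of 1e-06, and no source used here gives the strand setting of the counting, so antisense and overlapping genes may share reads. Groups came from the labels. Effects were fitted with limma 3.58.1 (R 4.3.3, trend on) on log2(value + 1) over 12 libraries with 4 group means and 8 residual degrees of freedom, and p-values were adjusted by Benjamini-Hochberg over 12005 genes. LNCaP95 was fitted on its own 6 libraries. In every group, pairs of replicates differed by more than sampling noise (chi-square per degree of freedom at least 5.26). edgeR 4.0.16 and DESeq2 1.42.0 were alternatives, run on the recovered reads.

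Members and lists were chosen with earlier results of these data known. Named genes were a panel of drug, androgen, stress and cycle genes, the 12 largest called differences in each direction among genes with a group mean of 50 or more, 6 genes with opposite calls per orientation, 5 shared effects per direction, and up to 4 members of each list with the smallest p. Some of these are covered by counts only, and FDPS, EBP, STARD4, ATF3, NCAPD3, NLRC5 and FADS2 were named after their values were seen. Some list members are not reported here.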

Additional observations from a re-analysis of the deposited data

Results flagged for a closer look

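The drug effect differed between the lines, by the test of the difference itself, in 1547 genes. Opposite calls were made in 88 genes. The difference was 3.25 for DMGDH, 2.77 for GDF15, 2.75 for DUSP4, 2.31 for EFCC1, 2.22 for FAM129A and 2.05 for PDE2A, which fell in LNCaP and rose in 22Rv1. It was -3.95 for UGT2B4, -3.45 for ACSL5, -3.08 for KIAA0408, -2.60 for TMOD1, -2.49 for NFKBIZ and -2.18 for GMPR, which rose in LNCaP and fell in 22Rv1. No outlier test was applied to single values within groups of 3 libraries.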

How the results depend on the processing

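The count of called differences stayed within 1.5 times of 1547 under the other pseudocounts, filters, scalings, spreads and tools tried, and was 3920 with array weights (1940 above 0 and 1980 below). At equal totals 423 were above 0 and 1541 below. With array weights the LNCaP effect had 5750 calls, the 22Rv1 effect 3092 and opposite effects 570. Opposite effects were 143 at equal totals, 139 with DESeq2, 200 with a replicate block and 265 with LNCaP replicates 2 and 3 only. With those 2 replicates only, the 22Rv1 effect had 1727 calls and the 100 nM difference 1892. Leaving out 1 library gave 998 to 2488 differences (496 to 1096 above 0, 496 to 1392 below), 1923 to 3947 LNCaP calls, 403 to 1739 22Rv1 calls, 38 to 293 opposite effects and 525 to 1905 differences at 100 nM. The highest count in each case was without LNCaP DMSO replicate 1. BCHE, never called, turned from -0.31 to 0.040 with array weights and 0.044 with LNCaP replicates 2 and 3 only, and ranged from -0.52 to 0.065 with 1 library left out. The causes of these shifts were not tested. Of the 115 named genes with a call, 82 kept it in each of the 14 other settings in which they were tested. Among these 82, NPC1L1, ELOVL4, KIAA0408, RSAD2 and PSMB9 were tested in only 12 of the settings. ACSL5, E2F2, EFCC1, PDE2A, NFKBIZ, GMPR, PDGFA and COL3A1 were tested in 13.

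Same-numbered libraries correlated at 0.31, 0.25 and 0.14 in LNCaP, where each library correlated best with its own number, and at 0.24, 0.20 and 0.04 in 22Rv1, where DMSO replicate 3 did not. The numbers were therefore not taken as pairs across both lines, although the LNCaP values hint at pairing there. With the replicate block, 2177 differences were called at 500 nM and 684 at 100 nM, and 1569 effects in 22Rv1. Below 0 were then 12 cholesterol synthesis genes (7 without the block), 5 androgen-induced genes (1 without) and 8 immediate early and MAPK feedback genes (2 without). FASN (adjusted p = 0.0171) and GPNMB (adjusted p = 0.0427) passed with the block. With 3 libraries a group, small differences can go uncalled.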
